A study of Mus musculus with 16 samples.

Results

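The 7 oncofetal genes Hmga1 and Hmga2, Lin28a and Lin28b, and Igf2bp1, Igf2bp2 and Igf2bp3, which are active in embryos and silenced in most adult tissues, were followed through tenogenic differentiation and in tendon. They were taken by family name, with earlier results of these data known, and were found by Ensembl identifier in both tables analysed. All 7 were among the 29629 genes of the single-cell table and the 47729 genes of the Achilles tendon table. In the culture experiment, mouse ScxGFP iPSCs, which carry a GFP transgene driven by Scx regulatory sequence and came from a single clone (iPSC-20), were kept on feeder cells in 2i LIF medium, turned into mesodermal cells (T0), and then given recombinant human TGF-β2 at 10 ng/ml in medium with less serum for 3 days (T3), 6 days (T6) or 9 days (T9). Serum was lowered on the day before TGF-β2, per the methods of the study, and the later times have no culture without TGF-β2 here. Each time point was sampled as 3 plates of 384 sorted cells by CEL-Seq2, which counts the 3′ ends of poly(A) RNA by unique molecular identifier (UMI). The tendon experiment was bulk poly(A) RNA sequencing of Achilles tendons of 2 wild-type mice (Scx_Wt) and 2 Scx-/- littermates (homozygous knockout) at 14 days of age. Scx encodes the transcription factor Scleraxis of the tendon lineage.

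The members meet in one regulatory circuit. Lin28a and Lin28b are RNA-binding proteins that hold back the maturation of the let-7 microRNAs, Lin28a mainly in pluripotent cells. Mature let-7 in turn pairs through its seed with the 3′ untranslated regions (3′ UTRs) of Hmga2, both Lin28 genes and the Igf2bp genes and lowers their RNA, so that the circuit is known as a switch between an embryonic and an adult state. Hmga1 and Hmga2 are architectural chromatin proteins that bend AT-rich DNA, and the Igf2bp proteins bind mRNAs such as Igf2, H19 and Actb and affect their stability, transport and translation. MicroRNAs have no poly(A) tail and were not measured here, so what follows describes the messenger RNAs of the circuit only.

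The sequences through which let-7 would recognise the members are shown first, because they are what the members share beyond their names. RefSeq lists 9 mature let-7 family names on GRCm38.p6, from 11 loci, and all share 1 seed. In the 4 examples the capitals mark that seed, bases 2 to 8.
mmu-let-7a-5p: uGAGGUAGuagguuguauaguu
mmu-let-7d-5p: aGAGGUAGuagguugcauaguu
mmu-let-7i-5p: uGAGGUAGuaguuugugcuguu
mmu-miR-98-5p: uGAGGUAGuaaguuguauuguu

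The complement of the seed was searched on the transcript strand of the longest annotated 3′ UTR of each gene (GRCm38) as the 7-mer CTACCTC and the 8-mer CTACCTCA, which contains the 7-mer. One site of each member is printed, with 2 more for Igf2bp1 and 1 more for Lin28a, the genes with more than 1 match to the 8-mer, and the capitals mark the match.
Hmga1: ccatcttctcctctgttcacaaaCTACCTC
Hmga2: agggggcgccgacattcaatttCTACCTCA
Lin28a, first site: ttggagtgcacagcctgttgaaCTACCTCA
Lin28a, second site: atgctttgagatcgccacaaacCTACCTCA
Lin28b: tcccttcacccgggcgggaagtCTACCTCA
Igf2bp1, first site: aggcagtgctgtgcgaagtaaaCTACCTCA
Igf2bp1, second site: tgggaaccagcagtgctattaaCTACCTCA
Igf2bp1, the third site: actacgagtataaatggatgaaCTACCTCA
Igf2bp2: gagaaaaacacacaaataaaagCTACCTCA
Igf2bp3: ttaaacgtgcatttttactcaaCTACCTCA
These stretches lie, all in the 3′ UTR, at chr17:27563269-27563298 (plus strand) for Hmga1 and on the minus strand at chr10:120364224-120364253 for Hmga2, chr4:134005189-134005218 and chr4:134004551-134004580 for Lin28a, and chr10:45381022-45381051 for Lin28b. Those of the Igf2bp genes are also on the minus strand, at chr11:95961778-95961807, chr11:95959357-95959386 and chr11:95958763-95958792 for Igf2bp1, chr16:22059473-22059502 for Igf2bp2 and chr6:49086787-49086816 for Igf2bp3.

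All 7 members held at least 1 match to the 7-mer, which 8.95% of the 20985 genes with an annotated 3′ UTR held. Hmga2, Lin28b and Igf2bp1 held 4 matches each, and 32 genes in all (0.152%) held 3 or more. Lin28a held 2 matches, and Hmga1, Igf2bp2 and Igf2bp3 held 1 each. The 3′ UTRs of the members were long, from 1183 bases in Hmga1 to 6337 in Igf2bp1, against a median of 954 bases over all genes, so that more matches were to be found in them. A match is a run of letters and was not shown here to be a bound site.

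**Figure D1:**
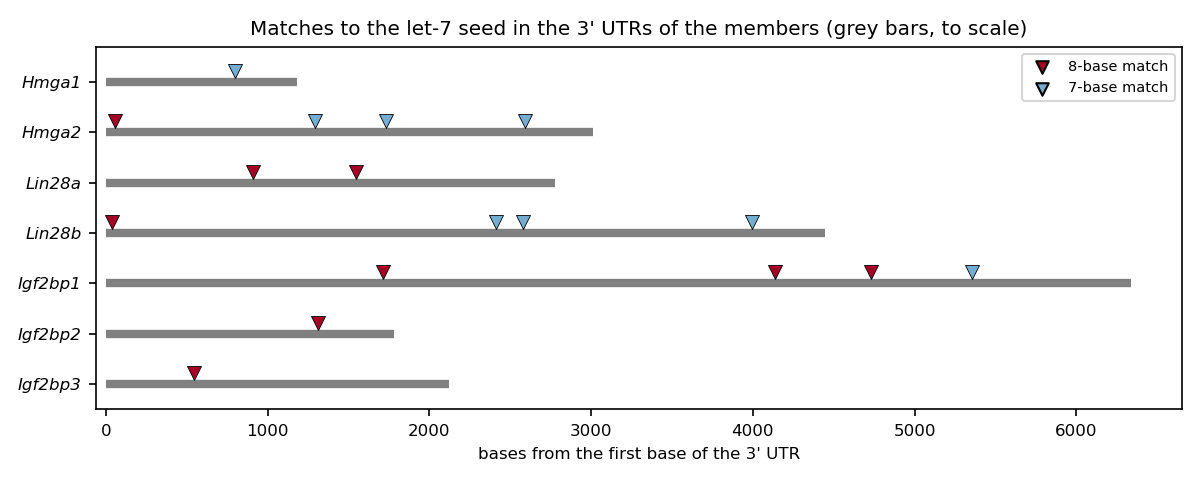
Position of each match to the let-7 seed along the 3′ UTR of the 7 members, with the distance in bases from the first base of the UTR on the x axis and each UTR drawn to scale as a grey bar. Dark red triangles are matches to the 8-mer and blue triangles matches to the 7-mer alone: Igf2bp1 has 3 of the former, while Hmga1 has a single 7-mer.

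Of 4608 wells, 4594 with at least 200 detected genes were kept. Their UMIs were summed per plate to between 1921125 and 4657093. The tendon libraries held 11188270 to 12398560 counts. The labels do not say that the plates of a time point came from separate cultures, so p-values measure the spread between plates only, which may be technical. All 12 plates used the same 384 barcodes, since barcodes mark wells. The plates fell on 2 sides of a library split in the share of reads without an annotated feature: 7 plates with more such reads (the 3 of T0, T3-2, T6-1, T6-3 and T9-3) had 9.28% to 15.1% mitochondrial UMIs, and 5 plates with fewer (T3-1, T3-3, T6-2, T9-1 and T9-2) had 21.6% to 27.9%. With every T0 plate on 1 side, comparisons with T0 are also given within that side, where T3 and T9 have 1 plate each that is assumed to vary like the rest. Levels are in CPM, that is, scaled to a total of 1000000 UMIs in each plate or class of cells, or 1000000 counts in each tendon library. Summed tenocyte markers rose from 438 to 521 CPM at T0 to 15551 to 42348 at T9, while summed dividing-cell markers were at 2644 to 2816 at T0 and 674 to 1106 at T9. Summed pluripotent markers were at 371 to 780 CPM at T0 and 0.332 to 296 at T9. The summed markers of 6 other cell types were at most 99.8 CPM in any plate, but some moved with time: chondrocyte markers went from 51.9 to 58.6 at T0 to 3.53 to 6.25 at T9 (2 of 2 tested called lower), adipocyte markers from 14.3 to 27.3 to at most 1.61 (1 of 1 lower), and endothelial markers rose from 11.8 to 16.1 to 45.9 to 99.8 (2 of 2 higher). Skeletal muscle markers were at 28.3 to 69.1 and 9.29 to 58.9 (0 of 2 called by edgeR), immune markers at 2.42 to 9.23 and 5.16 to 10.9 (0 of 1), and red blood cell markers at most 1.29 (none tested). The part of these cells in the members' levels was not tested.

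At T3, all 6 members that could be tested were lower than at T0. Across all 13372 genes tested, 16.2% were called lower and 33.2% in either direction, so the fall of the members took place within a wide change of the transcriptome. By T9 all 6 were still lower than at T0, where 21.6% of all genes were called lower and 45.2% in either direction. The share of all genes whose plates did not overlap between time points was not counted. Such separation, given below for single members, is therefore not read as particular to them. Only Hmga2 was called at each of the 3 steps. Levels of the members below are CPM after TMM scaling, and fold changes are on the log2 scale, from edgeR's quasi-likelihood test with Benjamini-Hochberg adjustment over all genes. Hmga1 did not pass the filter on low counts, so these counts cover 6 of the 7 members.

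**Figure D2:**
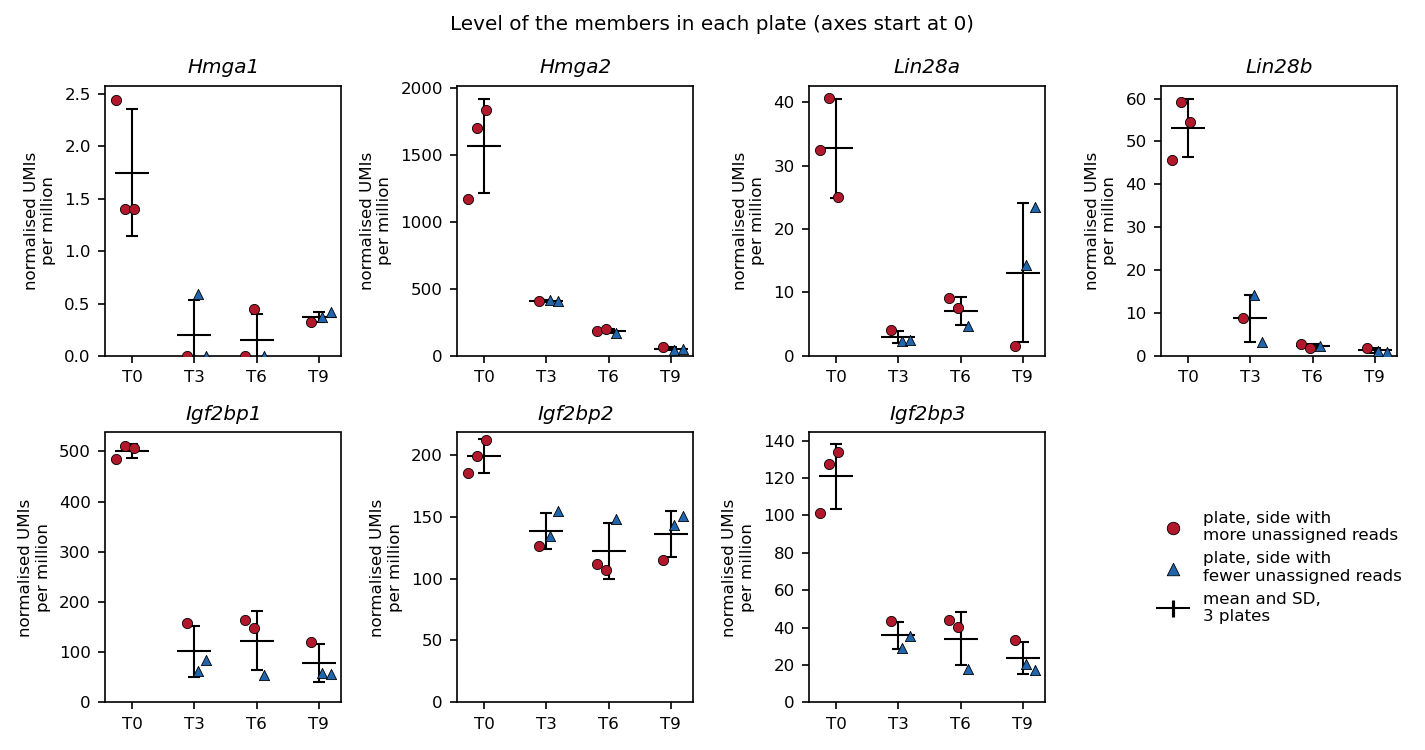
Level of each member in each of the 12 plates (points), in TMM-normalised CPM of UMIs, at T0, T3, T6 and T9, with a separate axis from 0 for each gene, circles and triangles for the 2 sides of the library split, and lines for the mean and SD of 3 plates. Hmga2 descends at every time point from 1569 to 54.2 on average, Igf2bp2 stays between 107 and 154 from T3 on, and Lin28a is scattered at T9.

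Hmga2, the HMGA gene typical of embryonic mesenchyme, fell in every interval. Its level was 1169, 1702 and 1835 CPM in the 3 plates of T0, 415, 407 and 409 at T3, 187, 168 and 201 by T6, and 44.7, 54.7 and 63.2 by T9. No plate of one time point overlapped with any plate of the next. The log2 fold change was -1.93 ± 0.20 (SE; adjusted p = 8.57e-06, edgeR) from T0 to T3, -1.15 ± 0.20 (adjusted p = 0.0052) from T3 to T6, and -1.77 ± 0.21 (adjusted p = 0.00167) from T6 to T9. Over the whole course it was -4.85 ± 0.23 (adjusted p = 2.47e-09). Within the side of the library split that holds T0 the change from T0 to T9 was -4.65 ± 0.29, and on the other side the steps from T3 to T6 and from T6 to T9 were -1.31 ± 0.24 and -1.75 ± 0.23. The lower steps were called in a small part of the transcriptome: from T3 to T6 4.24% of genes were called and 1.63% were lower, and from T6 to T9 1.62% were called and 0.688% were lower. Hmga2 and Lin28b were the 2 members called in the first of these steps and Hmga2 the 1 in the second.

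Hmga1, the HMGA gene known for high levels in dividing embryonic cells, was at the edge of detection in the culture. It had 14, 7 and 6 UMIs in the plates of T0, 1, 0 and 0 at T3, 0, 0 and 2 at T6, and 1 in each plate of T9. No fold is given, since all plates after T0 were below 3 UMIs, which is the limit that a count of 0 allows. The reading of Hmga1 is uncertain for a further reason: in the last 500 bases of its transcripts, 92.3% of the 36-base words, the length of the sequenced insert, also occur in Hmga1b, a near-identical copy on chromosome 11. Hmga1b was at 20.8, 11.0 and 11.9 CPM at T0 and 10.3, 15.9 and 16.3 at T9, with overlapping plates at all 4 time points, and whether these UMIs came from Hmga1 cannot be told apart here.

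Lin28b, the Lin28 paralogue that is also expressed outside pluripotent cells, fell from T0 to T3 and again to T6. It was at 45.8, 59.2 and 54.5 CPM at T0, 14.2, 8.95 and 3.28 at T3, 2.79, 2.33 and 1.77 by T6, and 1.11, 0.836 and 1.92 by T9. The T0 plates stood above all others, the T3 plates stood above those of T6 and T9, and the last 2 time points overlapped. The log2 fold change was -2.66 ± 0.36 (adjusted p = 7.57e-05, edgeR) from T0 to T3 and -5.29 ± 0.45 (adjusted p = 6.39e-07) from T0 to T9, and within the side of the split that holds T0 these were -2.59 ± 0.29 and -4.79 ± 0.39. From T3 to T6 it was -1.86 ± 0.45 (adjusted p = 0.0297). That call rested on few molecules, 62 UMIs at T3 and 26 at T6, and was lost without any one of T3-1 (adjusted p = 0.118), T3-2 (0.0686), T6-1 (0.0672) or T6-3 (0.129). From T6 to T9 the fold change was -0.77 (adjusted p = 0.543).

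Lin28a, which is best known from pluripotent cells, fell from T0 to T3 and then scattered. Its level was 32.5, 40.6 and 25.0 CPM at T0, 2.36, 4.01 and 2.55 at T3, 9.08, 4.66 and 7.53 by T6, and 14.4, 23.4 and 1.60 by T9. The T0 plates did not overlap with those of T9, but the T9 plates ranged from below every T3 plate to near the lowest T0 plate. The log2 fold change from T0 to T3 was -3.40 ± 0.63 (adjusted p = 0.00104, edgeR) and from T0 to T9 -1.35 ± 0.52 (adjusted p = 0.0487). The latter call was lost without any one of the T0 plates, T3-1, T3-3, T6-1, T6-3, T9-1 or T9-3, with adjusted p-values between 0.0508 and 0.153. T9-3 weighed most: without it the fold change was -0.80, while within the side of the split that holds T0, where it is the T9 plate, the fold change was -4.35 ± 0.49. The steps from T3 to T6 (1.23 ± 0.68, adjusted p = 0.365) and from T6 to T9 (0.82, adjusted p = 0.502) were not called, although the latter passed without T9-3 (1.39 ± 0.34, adjusted p = 0.0314) and turned to -2.34 ± 0.59 (adjusted p = 0.0599) within the side that holds T0.

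The summed pluripotent markers moved with Lin28a between the plates of T9. They were at 160.0, 296 and 0.332 CPM in T9-1, T9-2 and T9-3, the order of the Lin28a levels. The order also matched in the plates of T6 (140, 8.27 and 12.4). It did not in those of T0 (780, 625 and 371) or T3 (133, 156 and 105). The part of the pluripotent-like cells in the Lin28a levels is described with the classes of cells below.

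Igf2bp1, an mRNA-binding protein of embryonic tissues, lost most of its RNA in the first interval. It was at 485, 510 and 506 CPM at T0, 62.6, 158 and 83.7 at T3, 164, 55.1 and 149 by T6, and 57.6, 56.0 and 121 by T9. Plates of T3, T6 and T9 overlapped freely, and all lay below T0. The log2 fold change was -2.29 ± 0.42 (adjusted p = 0.000908, edgeR) from T0 to T3 and -2.67 ± 0.42 (adjusted p = 0.000173) from T0 to T9. After T0 the levels followed the library split: the 4 plates T3-2, T6-1, T6-3 and T9-3 were at 121 to 164, and the other 5 at 55.1 to 83.7. Within the side that holds T0 the 2 changes were therefore smaller, at -1.69 ± 0.16 (adjusted p = 2.73e-06) and -2.06 ± 0.16 (adjusted p = 2.76e-07). The steps from T3 to T6 (0.27, adjusted p = 0.779) and from T6 to T9 (-0.65, adjusted p = 0.450) were not called, and the sign of the former turned within each side of the split (-0.03 and -0.44).

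Igf2bp3, which shares the mRNA-binding domains of Igf2bp1, had a like course. Its level was 101, 127 and 134 CPM at T0, 28.9, 43.5 and 35.3 at T3, 44.2, 17.9 and 40.1 by T6, and 20.7, 17.1 and 33.2 by T9, with every T0 plate above every other. At T3, T6 and T9, plates on the side of the library split that holds T0 were above those of the other side at the same time. The log2 fold change was -1.74 ± 0.31 (adjusted p = 0.000695, edgeR) from T0 to T3 and -2.34 ± 0.31 (adjusted p = 4.10e-05) from T0 to T9. It was -1.50 ± 0.20 and -1.88 ± 0.21 within the side of the split that holds T0. From T3 to T6 and from T6 to T9 it was -0.07 and -0.53, with adjusted p of 0.937 and 0.422. In the annotation 1529 exonic bases of Igf2bp3 overlap Malsu1 on the opposite strand, and the strand setting of the counting is not given in the sources used here, so that reads of the 2 genes may have been shared.

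Igf2bp2, the family member known to persist in adult mesodermal tissues, changed least in fold among the 3. It was at 185, 199 and 212 CPM at T0, 134, 127 and 154 at T3, 112, 148 and 107 by T6, and 143, 150 and 115 by T9. The T0 plates lay above all others, which overlapped with each other at T3, T6 and T9. After T0 the levels followed the library split, in the reverse direction to Igf2bp1. T3-2, T6-1, T6-3 and T9-3 were at 107 to 127, and the plates of the other side at 134 to 154. The log2 fold change was -0.52 ± 0.18 (adjusted p = 0.0355, edgeR) from T0 to T3 and -0.54 ± 0.18 (adjusted p = 0.0216) from T0 to T9, and -0.67 ± 0.15 and -0.80 ± 0.15 within the side that holds T0. The first call was lost without any one of the T0 plates, T3-1, T3-2 or T6-1 (adjusted p from 0.0519 to 0.122), and the second without T0-2, T0-3 or T9-3 (0.0575 to 0.0785). The steps after T3 were -0.18 (adjusted p = 0.639) and 0.16 (adjusted p = 0.690).

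**Figure D3:**
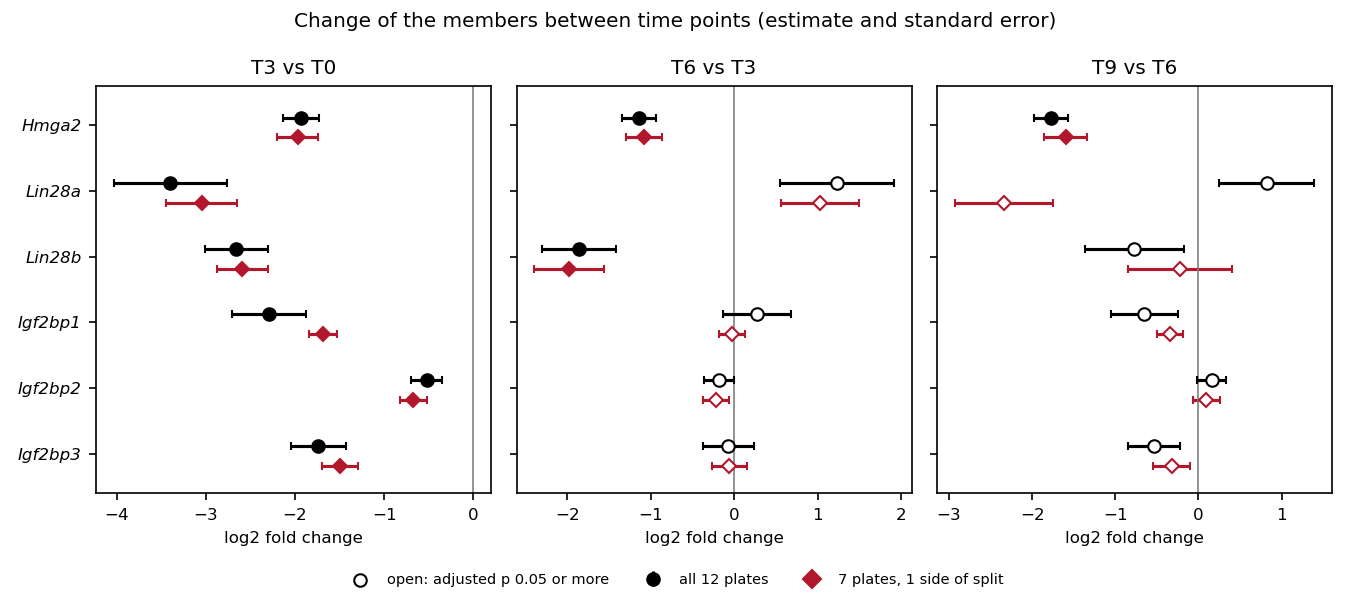
Log2 fold change of the 6 tested members (points) with its standard error (bars) for T3 against T0, T6 against T3 and T9 against T6, with circles for all 12 plates, diamonds for the 7 plates on the side of the library split that holds T0, and filled marks for an adjusted p under 0.05. Hmga2 lies below 0 and is filled in every panel, whereas the marks of the Igf2bp genes are filled from T0 to T3 and open in the 2 later steps.

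The genes whose levels ran most like those of each member over the 12 plates are given as a description, since the T0 plates stand apart and any gene that fell after T0 will correlate. The levels of the Igf2bp genes also went with the library split after T0, and its part in the correlations was not tested. They were Hnrnph1 (Pearson r = 0.988), Nasp (0.985) and Exo1 (0.984) for Hmga2, and Asb4 (0.983), Med19 (0.978) and Fignl1 (0.976) for Lin28b. For Lin28a they were Sall4 (0.954), a transcription factor of pluripotent cells, Gpx4-ps2 (0.932) and Mrps2 (0.930). Igf2bp1 ran with Vars (0.991), Nacc1 (0.988) and Unc5b (0.985), Igf2bp3 with Brca2 (0.982), Ccnd1 (0.982) and Pnn (0.980), and Igf2bp2 with Polr2m (0.977), Stip1 (0.971) and Ywhae (0.965). Among the members themselves r was 0.979 between Igf2bp1 and Igf2bp3, 0.938 between Hmga2 and Lin28b, and 0.372 between Hmga2 and Lin28a.

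The share of cells with a UMI of a member was compared after every cell had been thinned to 3000 UMIs, which left 4301 cells and removed 293 shallower ones. Hmga2 was found in 91.7% ± 3.15 of cells (SD, n = 3 plates) at T0, 52.3% ± 9.12 at T3, 34.8% ± 7.74 by T6 and 10.5% ± 3.86 by T9. Without thinning the shares were 97.1%, 67.0%, 55.7% and 21.1%. Igf2bp1 went from 77.4% ± 1.18 at T0 to 22.4% ± 12.7 at T3, 28.5% ± 13.0 by T6 and 15.0% ± 6.86 by T9, and Igf2bp3 from 31.6% ± 2.73 to 8.24% ± 3.46, 9.05% ± 3.84 and 5.43% ± 2.94. Igf2bp2 was found in 48.4% ± 1.72 of cells at T0 and in 28.5% ± 6.80, 27.9% ± 1.96 and 26.3% ± 1.72 after it. Lin28b was found in 16.1% ± 1.11 of T0 cells and 0.365% ± 0.422 of T9 cells, and Lin28a in 6.99% ± 2.18 and 1.52% ± 0.851.

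Single cells had UMIs of fewer members at the later time points than at T0, as the lower shares of the single members above imply. Whether members occurred together beyond those shares was not tested. With every cell at 3000 UMIs, 58.2% ± 4.76 of T0 cells had UMIs of 3 or more of the 6 members other than Hmga1, against 6.83% ± 5.46 at T3, 6.17% ± 2.57 by T6 and 0.997% ± 0.584 by T9. Cells with a UMI of none made up 0.467% ± 0.323 at T0, 26.8% ± 11.2 at T3, 32.7% ± 12.2 by T6 and 53.1% ± 9.24 by T9. The plates of T0 did not overlap with those of any later time point in either share. A cell without a UMI at this depth is not shown to lack the RNA.

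**Figure D4:**
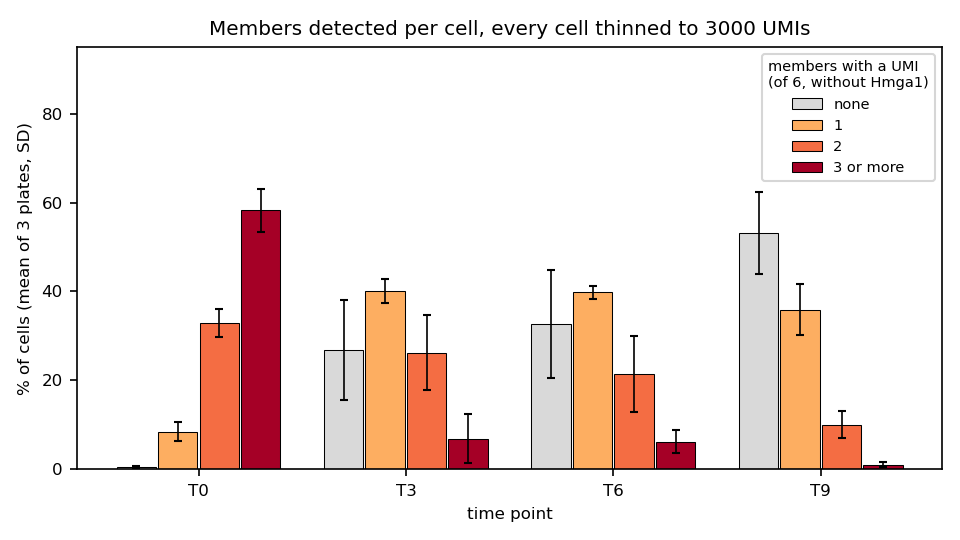
Share of cells, in percent (mean of 3 plates, bars with SD), that had a UMI of none, 1, 2 or at least 3 of the 6 members other than Hmga1 at T0, T3, T6 and T9, with every cell thinned to 3000 UMIs. Cells with at least 3 members go from 58.2% at T0 to 0.997% at T9, and cells with none from 0.467% to 53.1%.

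Within T0, cells were split by pluripotent markers that do not include Lin28a. The 118 cells with UMIs of at least 3 of the 8 markers (Pou5f1, Nanog, Sox2, Utf1, Tdgf1, Zfp42, Dppa5a and Esrrb) are called pluripotent-like here, against 1029 others. This class is a range, not a type: 45 of these cells were at the threshold and 170 others 1 marker below it, and the class was deeper, with a median of 14206 to 17167 UMIs per cell by plate against 8874 to 10827. It took 15.8% of the UMIs of T0. In a fit with the plate as a block, 30.5% of the 11390 genes tested were called between the classes, 15.8% higher and 14.7% lower in pluripotent-like cells.

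Of the 6 tested members, 5 differed between these classes, and not in the same direction. Lin28a was at 94.8, 173 and 171 CPM in the pluripotent-like cells of the 3 plates and 24.3, 24.3 and 16.1 in the other cells, a log2 fold change of 2.70 ± 0.24 (adjusted p = 1.58e-06, edgeR). The class held 53.2% of the Lin28a UMIs of T0. Hmga2 was at 907, 696 and 411 in the pluripotent-like cells and 1587, 2202 and 2261 in the others (-1.56 ± 0.20, adjusted p = 5.25e-05). Lin28b (-0.95 ± 0.22, adjusted p = 0.00459), Igf2bp3 (-0.80 ± 0.18, adjusted p = 0.00359) and Igf2bp2 (-0.52 ± 0.13, adjusted p = 0.00777) were also lower in pluripotent-like cells in each of the 3 plates. Igf2bp1, at 575, 686 and 546 against 603, 574 and 585, overlapped between the classes (0.06 ± 0.11, adjusted p = 0.714). With the classes set in thinned cells, Lin28a and Hmga2 moved further apart (3.41 and -2.67), and the call of Lin28b was lost (-0.61, adjusted p = 0.464), as it was without T0-2 (-0.76, adjusted p = 0.0923). DESeq2 did not call Igf2bp2 (-0.53, adjusted p = 0.0638).

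After T0 few such cells were left, 15, 6 and 15 at T3, T6 and T9, and they held much of the Lin28a. They held 17 of 24 Lin28a UMIs at T3 (70.8%), 35 of 85 at T6 (41.2%) and 51 of 100 at T9 (51.0%), with 2.79%, 1.44% and 3.32% of all UMIs. In all other cells Lin28a was at 0.959, 4.51 and 5.17 CPM at T3, T6 and T9, against 21.7 in the other cells of T0. T9-1, T9-2 and T9-3 had 5, 10 and 0 pluripotent-like cells. Without these cells at any time the change of Lin28a from T0 to T9 was -1.45 ± 0.63 (adjusted p = 0.0714) and that of Hmga2 -4.94 ± 0.23 (adjusted p = 1.44e-09).

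From T3 to T9, the 718 cells with UMIs of at least 4 of 10 dividing-cell markers were set against the 2729 others of the same plates. Of the 9674 genes tested, 23.3% were called, 12.1% higher in dividing cells. Igf2bp1 was higher in dividing cells in 9 of 9 plates, at 67.8 to 225 CPM (median 95.1) against 32.5 to 161 (median 71.3), with a log2 fold change of 0.55 ± 0.11 (adjusted p = 0.000895, edgeR). Hmga2 at a median of 209 against 203, Igf2bp2 at 126 against 120 and Igf2bp3 at 30.3 against 34.4 were not called. In the fit with the plate as a block their log2 fold changes were 0.07 ± 0.08, 0.03 ± 0.09 and 0.19 ± 0.15. The medians of Igf2bp3 thus ran against the sign of its fit. The dividing cells were deeper, with medians of 6179 to 15209 UMIs per cell against 4152 to 9088, 138 of them were at the threshold and 290 others 1 marker below it. When the classes were set in cells thinned to 3000 UMIs, Igf2bp1 was at 0.39 ± 0.17 (adjusted p = 0.122) and not called. Lin28a was below the filter. It had 168 UMIs in dividing and 41 in other cells, 23.5 ± 22.4 against 1.99 ± 3.00 CPM (SD, n = 9 plates), and was not tested; both pluripotent markers that were tested were also higher in the dividing class.

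No member was called between cells with and without the tendon genes at the time each had come up. At T3, 933 cells with an Scx UMI were set against 218 without, where 0.437% of 8918 genes were called. Hmga2 was at 393, 500 and 403 CPM in the Scx+ cells of the 3 plates and 269, 409 and 321 in the others, higher in 3 of 3 plates (0.38 ± 0.12, adjusted p = 0.282, edgeR). It was the 1 of 5 tested members with an unadjusted p under 0.05 (0.00454). In the same comparison 4 of 5 tested pluripotent markers were called lower in Scx+ cells. The 15 pluripotent-like cells of T3 held 9 of 3145 Hmga2 UMIs, with 2.79% of all UMIs. Their part in the Hmga2 difference between the Scx classes was not tested. At T9, 155 cells with a UMI of Tnmd, a late tendon gene, were set against 992 without, where 1.19% of 10090 genes were called. Igf2bp2 was at 83.5, 98.2 and 78.5 in the Tnmd+ cells against 111, 118 and 125, lower in 3 of 3 plates (-0.42 ± 0.17, adjusted p = 0.439), and was the 1 of 5 tested with an unadjusted p under 0.05 (0.0246). Lin28a was at -1.34 ± 0.65 (adjusted p = 0.563) on 7 UMIs in Tnmd+ cells. DESeq2 called 0 members in either comparison. Cells without a UMI of Scx or Tnmd may still express it. Median UMIs per cell were 4744 to 7043 against 4166 to 7013 for Scx and 7734 to 10040 against 7030 to 8743 for Tnmd.

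**Figure D5:**
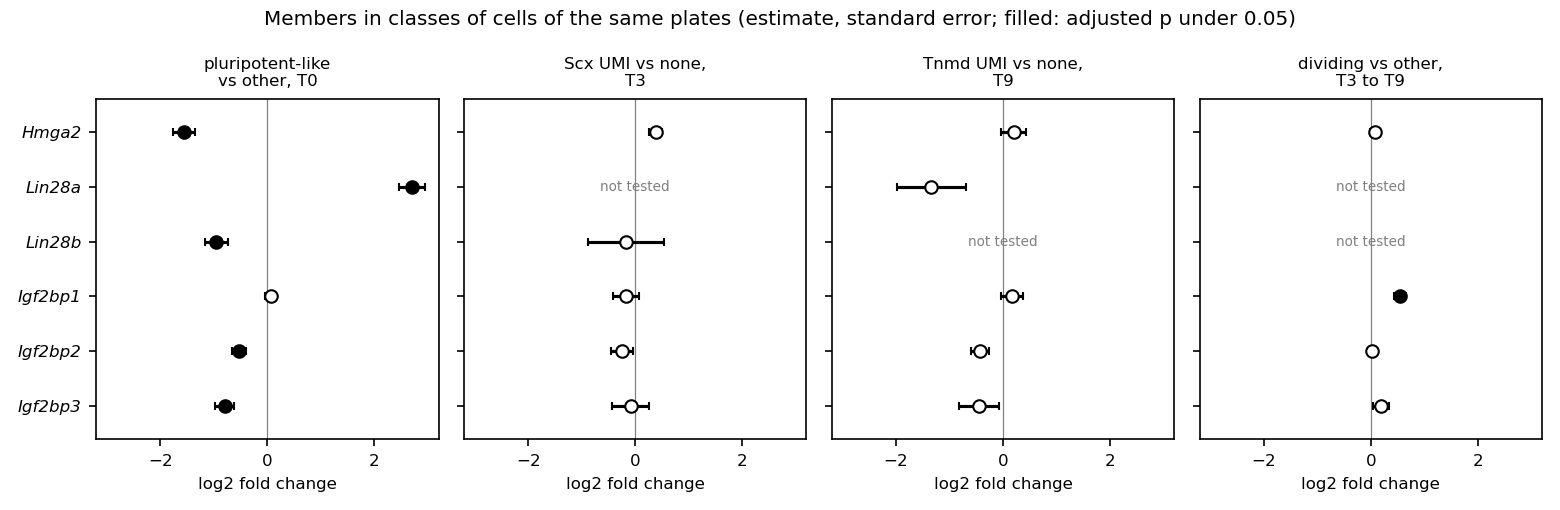
Log2 fold change (points) with its standard error (bars) of the 6 members other than Hmga1 between classes of cells of the same plates: pluripotent-like against other cells at T0, cells with and without a Scx UMI at T3, with and without a Tnmd UMI at T9, and dividing against other cells from T3 to T9. Filled points have an adjusted p under 0.05: 5 members in the first panel, with Lin28a alone above 0, and Igf2bp1 in the last.

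The rest of the circuit was followed through 7 gene lists, of 76 genes in all. Among known let-7 targets outside the 3 families, 15 of 26 genes were lower and none higher at T3 than at T0, where 16.2% of all genes were lower. The median log2 fold change was -0.93 against 0.01 over all genes. At T9, 18 were lower and 1 higher than at T0, where 21.6% of all genes were lower, with a median of -1.19 against -0.02. Igdcc3, a cell-surface immunoglobulin-domain protein, went from 190 ± 28.2 CPM (SD, n = 3) at T0 to 1.21 ± 1.10 at T3 (-7.04 ± 0.41, adjusted p = 3.27e-08, edgeR) and 0.598 ± 0.521 at T9. A count of 3 UMIs is 1.05 to 1.56 CPM in the T3 plates before TMM scaling. Igdcc3 was thus near the limit of detection after T0, and the size of its fold is uncertain. Trim71, a developmental RNA-binding protein, went from 47.7 ± 5.30 to 5.65 ± 4.65 at T3 (-2.95 ± 0.37, adjusted p = 3.96e-05), and Arid3b, a DNA-binding protein, from 41.3 ± 4.67 to 3.68 ± 2.36 (-3.36 ± 0.65, adjusted p = 0.00138). Prtg was at 62.4 ± 14.1 at T0 and 8.40 ± 3.03 at T9 (-2.91 ± 0.63, adjusted p = 0.00184). Myc, at 17.9 ± 1.59 at T0 and 28.6 ± 6.56 at T9, was the 1 target called higher (0.67 ± 0.24, adjusted p = 0.0312), a call that was lost when plates were scaled by their totals (0.21, adjusted p = 0.559). None of the 26 was called from T3 to T6 or from T6 to T9 by edgeR, with 4 and 3 genes at an unadjusted p under 0.05.

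In the let-7 processing list 6 of 16 genes were lower at T3 and 7 at T9 than at T0, none was higher, and the medians were -0.18 and -0.60. Over all genes 16.2% were lower at T3 and 21.6% at T9, and the counts of the other lists stand against the same shares, or against the 33.2% and 45.2% called in either direction. The 6 and 7 of 16 processing genes are close to the shares called in either direction. Dicer1, which cuts the let-7 hairpin, went from 131 ± 14.7 to 46.9 ± 17.4 at T3 (-1.47 ± 0.32, adjusted p = 0.00346) and 34.8 ± 17.2 at T9. Dgcr8, the partner of Drosha in the first cut, went from 13.5 ± 3.74 to 2.38 ± 1.12 at T3 (-2.40 ± 0.48, adjusted p = 0.00182). Ago2, which carries the mature microRNA, went from 287 ± 31.2 to 149 ± 46.7 (-0.94 ± 0.29, adjusted p = 0.0219), and Tarbp2, a Dicer partner, from 32.7 ± 3.29 at T0 to 13.2 ± 2.46 at T9 (-1.30 ± 0.24, adjusted p = 0.000584). Of 3 tested let-7 host transcripts, Huwe1 was lower at T3 (-0.93 ± 0.28, adjusted p = 0.0207) and at T9, Wdr82 at T9 (-0.54 ± 0.19, adjusted p = 0.0289), and Mir99ahg was at 0.07 ± 0.64 and -0.28 ± 0.64 without a call. With plates scaled by their totals the calls of Ago2 (adjusted p = 0.0639) and Huwe1 (0.0549) at T3 were lost.

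Of 7 protein partners of the Igf2bp proteins, 4 were lower at T3 and 5 at T9 than at T0, with medians of -0.64 and -0.69. Dhx9, an RNA helicase, went from 261 ± 19.3 at T0 to 93.8 ± 8.96 at T3 and 46.7 ± 15.1 at T9, and fell again from T6 to T9 (-1.29 ± 0.23, adjusted p = 0.0152), a step that was not called with only the 6 plates compared (adjusted p = 0.124). Hnrnpu went from 874 ± 83.3 to 417 ± 60.6 at T3 (-1.07 ± 0.17, adjusted p = 0.000365) and Syncrip from 304 ± 2.43 to 161 ± 17.2 (-0.92 ± 0.17, adjusted p = 0.00122). Among 6 RNAs known to be bound by Igf2bp proteins, 2 rose and 1 fell at T3. Igf2, the growth factor that gave the family its name, rose from 2422 ± 191 to 6392 ± 1200 at T3 (1.40 ± 0.23, adjusted p = 0.000455) and 9452 ± 1312 at T9 (1.96 ± 0.24). H19, the noncoding RNA of the same locus, rose from 1777 ± 39.4 to 4306 ± 1589 and 8332 ± 1742 (2.23 ± 0.27 at T9, adjusted p = 1.84e-05). Cd44, a hyaluronan receptor, fell from 18.2 ± 2.13 to 1.84 ± 1.06 at T3 (-3.37 ± 0.45, adjusted p = 7.07e-05), near the limit of detection, so that the size of its fold is uncertain. Actb was lower at T9 (-0.51 ± 0.19, adjusted p = 0.0415, and 0.0729 with only the 6 plates compared).

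Among 9 genes of the m6A machinery, whose mark the Igf2bp proteins can read, the demethylase gene Alkbh5 was higher at T3 (0.95 ± 0.17, adjusted p = 0.000809) and at T9 (where library totals ended the call, adjusted p = 0.096), and Ythdf2, Mettl14 and Ythdc1 were lower at T9, with Ythdf2 at -1.08 ± 0.20 (adjusted p = 0.00072). Among 7 other HMG proteins, Hmgn3 was higher at T3 (2.01 ± 0.34, adjusted p = 0.000532) and T9. From T3 to T6, Hmgb2 (-1.57 ± 0.31, adjusted p = 0.011) and Hmgb3 (-1.44 ± 0.22, adjusted p = 0.00209) fell, as did Mettl14 (-0.82 ± 0.21, adjusted p = 0.0424, lost within either side of the split at 0.122 and 0.407), and at T9 4 of the 7 were lower than at T0. The 4 of 9 m6A genes called at T9 are close to the 45.2% called over all genes. The lists were also read in the classes, where 15.8% of all genes were higher and 14.7% lower in pluripotent-like cells and 12.1% higher in dividing cells. In pluripotent-like cells 6 of 26 let-7 targets were higher, led by Nr6a1 (2.69 ± 0.20) and Trim71 (1.34 ± 0.20), and 9 lower, among them Plagl2, Igdcc3 and Igf1r. In dividing cells 5 of 7 other HMG proteins were higher, with Hmgb2 at 2.70 ± 0.10, as were 5 of 7 Igf2bp partners, and Igf2 (-0.45 ± 0.09) and H19 (-0.55 ± 0.06) were lower. The calls of Igf2 (adjusted p = 0.248) and H19 (0.188) in dividing cells were lost without the plate as a block. So were those of Hmgb3 (0.145), Hmgn2 (0.127), Dhx9 (0.166) and Syncrip (0.126), in a setting that called 7.17% of all genes. No gene of the 7 lists was called by edgeR in the Scx, Tnmd or Scx-/- comparisons, in which at most 3 genes of any list had an unadjusted p under 0.05.

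Genes were also grouped by the 8-mer itself, leaving out the members. Among genes tested from T0 to T3, 43.5% of the 23 with 2 or more matches were called lower, 19.9% of the 412 with 1 match, and 17.9% of the 11201 with none. The median log2 fold changes were -0.16, -0.21 and -0.05. From T0 to T9 the called shares were 52.2%, 26.7% and 23.5%, and the medians -0.83, -0.32 and -0.05. The median 3′ UTR was 4453, 2473 and 1212 bases in the 3 groups, so that the number of matches ran with UTR length, whose part in these shares was not tested. Known targets such as Igdcc3 and Trim71 are among the 23.

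In the Achilles tendon, Scx checked the labels first. It had 1151 and 996 counts in the wild type and 287 and 296 in Scx-/- tendons (-1.88 ± 0.17, adjusted p = 0.000429, edgeR), and Tnmd had 16336 and 15406 against 3327 and 3113. The remaining Scx counts were not resolved by exon, since the table holds 1 value per gene. Summed tenocyte markers were at 155798 to 169154 CPM in wild-type and 75426 to 86727 in Scx-/- libraries (6 of 10 called lower by edgeR, Scx and Tnmd among them). Summed skeletal muscle markers were at 35188 and 65886 against 84479 and 88530 (0 of 8 called). Chondrocyte markers were at 724 and 791 against 26.4 and 44.1 (4 of 5 tested called lower), and summed adipocyte markers at 1443 and 3736 against 522 and 882 (2 of 6 lower). Endothelial markers were at 856 and 865 against 643 and 543 (1 of 6, Kdr, called lower), pluripotent markers at 19.2 and 7.26 against 1.37 and 2.12 (1 of 2 tested, Esrrb, called lower), and dividing-cell markers at 146 and 157 against 218 and 200 (0 of 10 called by edgeR), none of them overlapping between the genotypes. Immune markers, at 152 to 270, and red blood cell markers, at 141 to 249.5 over the 4 libraries, overlapped. The tissue was thus mixed, and the summed markers of several cell types differed between the genotypes. With 2 libraries per genotype, sums that do not overlap are a weak sign where no gene was called. In bulk tissue, fewer cells of a type and less RNA per cell cannot be told apart, and the part of the other tissues in the values below was not tested.

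Only 3 members were measurable in the tendon at 2 weeks, and none was called between the genotypes, where 3.84% of 14602 genes were called. Igf2bp2 had 302 and 272 counts in the wild type and 197 and 210 in Scx-/- tendons, which is 3.65 and 3.00 RPKM (counts divided by library total and exon length) against 2.15 and 2.41. The groups did not overlap, which happens easily with 2 libraries per genotype and was not counted over all genes. The log2 fold change was -0.49 ± 0.21 (adjusted p = 0.266, unadjusted 0.0417, edgeR). Hmga1 had 29 and 47 counts in the wild type and 43 and 58 in Scx-/- (1.22 and 1.80 against 1.63 and 2.32 RPKM), with overlapping groups (0.42 ± 0.50, adjusted p = 0.730). Igf2bp3 had 29 and 16 against 17 and 51 counts (0.318 and 0.160 against 0.168 and 0.531 RPKM), again with overlap (0.62 ± 0.72, adjusted p = 0.722), and its sign turned without the second Scx-/- library (-0.47). Igf2bp2 was the 1 of 3 tested members with an unadjusted p under 0.05, and DESeq2 called 0 of them. Per length of transcript, the RPKM of Igf2bp2 lay above that of Hmga1 in the wild-type libraries, and that of Igf2bp3 below both. Hmga1b, the near-identical copy of Hmga1, had 0 and 1 counts in the wild type and 0 and 0 in Scx-/- tendons. The part of the sequence shared by the 2 genes in the Hmga1 values was not tested.

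The other 4 members were at or near 0 in the tendon. Hmga2 had 1 and 3 counts in the wild type and 1 and 0 in Scx-/-, Lin28a 0 and 0 against 1 and 2, Lin28b 4 and 0 against 0 and 2, and Igf2bp1 0 and 4 against 5 and 0. None passed the filter, and no fold is given. A count of 0 allows up to 0.268 CPM in the first wild-type library and 0.245 in the second, for counting error only. Igf2bp2, whose plates overlapped from T3 to T9 in the culture, was thus the member with the most counts in the tendon, and Hmga2, Lin28a, Lin28b and Igf2bp1 were at the limit of detection in both genotypes.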

How the data were processed

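The authors deposited UMI counts per gene and well for the 12 plates and read counts per gene for the 4 tendon libraries, both unnormalised. Per the labels, the reads were aligned to GRCm38 with HISAT2 2.2.1 and counted with featureCounts and UMI-tools 1.0.1 (single cells), or with HISAT2 2.0.4 and featureCounts 1.5.0 (bulk). The annotation release and strand setting are not given in the sources used here. Wells with fewer than 200 genes and 3 rows that name no gene (0.0642% of UMIs) were left out, and UMIs were summed per plate, or per plate and class of cells with the plate as a block. Doublets were not called, since 1 cell was sorted per well. Counts were tested with edgeR 4.0.16 (R 4.3.3; filterByExpr, TMM, quasi-likelihood test, all 12 plates in 1 fit, the tendon libraries in another), Benjamini-Hochberg adjusted over all genes and called at 0.05. The standard error given with an edgeR fold change is approximate: it is the size of the fold change divided by the square root of the test's F statistic. DESeq2 1.42.0 and other settings were alternatives, and the code was tested on simulated data. The normalised plate levels are TMM-scaled. Class levels and marker sums were divided by the library or class total instead. Genes named are the 7 members, per member the 3 genes of highest Pearson r, and up to 3 called genes per list, comparison and direction with the largest change, of which some are given by count. Lists were let-7 processing, known let-7 targets, let-7 host transcripts, Igf2bp partners, Igf2bp target RNAs, m6A machinery, other HMG proteins, and cell type markers. Members and lists were chosen with earlier results of these data known. The side of the library split comes from the mapping summary of the study. RPKM used GRCm38 exon lengths.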

Additional observations from a re-analysis of the deposited data

How the results depend on the processing

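The alternatives were DESeq2, RLE size factors, no filter on low counts, another minimum of genes per well, cells thinned to 3000 UMIs, only the plates compared, the library split as a covariate, the replicate block, and each plate or library left out. Fits within a side of the split, without pluripotent-like cells, with classes set in thinned cells and with library totals in place of TMM were chosen after seeing the data. Members called numbered 6 from T0 to T3 except with thinned cells, the replicate block, or 1 of the plates T0-1, T0-2, T0-3, T3-1, T3-2 and T6-1 left out, each of which lost Igf2bp2.

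Same-numbered plates did not deviate together (r from -0.564 to 0.503 over 18 pairs, 5 of them over 0.1), so the numbers are not taken to pair the plates. With the replicate block, Igf2bp2 from T0 to T3 had an adjusted p of 0.0586 and Lin28b from T3 to T6 0.0551. The members called from T3 to T6, 2 in the report, were 1 with the replicate block, with only the 6 plates compared, with thinned cells, on the other side of the split, and with library totals. Without 1 plate they were 1 to 2 from T3 to T6, 1 to 2 from T6 to T9, 5 to 6 from T0 to T3 and 4 to 6 from T0 to T9. The 1 member called in dividing cells became 2 with no filter on low counts, 0 with no replicate block (Igf2bp1 0.53, adjusted p = 0.305) and 0 with classes set in thinned cells.

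Library totals lowered the median of all genes to -0.21 from T0 to T3 and to -0.49 from T0 to T9, against 0.01 and -0.02. Genes called higher became 1524 of 3893 (2279 of 4439 in the report) and 1755 of 6223 (3155 of 6050). The direction of every member's call held. Fits that reversed a sign did so on values that were not called. From T3 to T6 these were Lin28a in thinned cells (-0.18), Igf2bp1 with the split as covariate (-0.17), within the side of T0 (-0.027) and on the other side (-0.44), and Igf2bp2 on the other side (0.017). From T6 to T9 they were Lin28a within the side of T0 (-2.34), Igf2bp1 (0.048), Igf2bp2 (-0.0098) and Igf2bp3 (0.0895) on the other side, and Igf2bp2 with library totals (-0.078). Between Scx classes they were Lin28b with DESeq2 (0.035) and with 1 more UMI required (0.37) and Igf2bp3 with no filter (0.0053). Between Tnmd classes it was Igf2bp1 with 1 more UMI (-0.082) and in thinned cells (-0.31). In dividing cells it was Igf2bp2 with no filter (-0.034) and in thinned cells (-0.017), and in pluripotent-like cells Igf2bp1 with no filter (-0.049).

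Leaving out 1 plate or library reversed Igf2bp3 (-0.33 to 0.22) and Igf2bp1 (-0.028 to 0.72) from T3 to T6, and Igf2bp3 in Scx-/- tendon (-0.47 to 1.24). Between Scx classes it reversed Lin28b (-0.52 to 0.13), Igf2bp1 (-0.49 to 0.15), Igf2bp2 (-0.59 to 0.021) and Igf2bp3 (-0.24 to 0.18). Elsewhere it reversed Igf2bp1 between Tnmd classes (-0.0037 to 0.30), Igf2bp2 in dividing cells (-0.023 to 0.066) and Igf2bp1 in pluripotent-like cells (-0.079 to 0.12). The causes were not tested. Low counts limit Hmga1 after T0, Lin28b after T3 and 4 members in the tendon, where counts of 0 to 5 allow no comparison. For Hmga1 the sequence shared with Hmga1b is a further limit. The 2 tendon libraries per genotype give a wide error.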
